A study of Mus musculus with 8 samples.

Results

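The Cyp3a genes encode cytochrome P450 monooxygenases of subfamily 3A. All 8 were measured in RNA that the paper describes as from the stromal vascular fraction of MC38 colon tumors. That fraction is the cells left after GFP-positive tumor cells had been sorted away. Hepatocyte markers, however, summed far above fibroblast markers in every library, as given below, and the source of the RNA was not tested. The 8 genes are Cyp3a11, Cyp3a13, Cyp3a16, Cyp3a25, Cyp3a41a, Cyp3a41b, Cyp3a44 and Cyp3a59, 8 of 55487 gene rows in the count table. These 8 were selected on their measured values, with the difference between the genotype labels in view, so the label contrast of the members is given below as a description without a test. MC38 is a mouse colon cancer line, grown here under the skin of Bmal1+/+ mice and of mice labelled Bmal1-/-, bred from Bmal1+/- founders to carry a knockout of this clock gene in the whole animal. Each label has 4 libraries, 1 per sample, and no source used here gives the sex, the age or the hour of collection. Nothing in the labels says more than that these are separate samples, so the p-values below measure the spread between samples.

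CYP3A enzymes sit in the endoplasmic reticulum of hepatocytes and enterocytes and oxidize drugs, steroids and bile acids. Each needs a heme group and electrons from P450 oxidoreductase, encoded by Por. Transcription in the liver is induced through the nuclear receptors PXR (Nr1i2) and CAR (Nr1i3). In adult mouse liver Cyp3a11 is abundant in both sexes, whereas Cyp3a41 and Cyp3a44 are known as female-predominant genes that depend on the pattern of growth hormone, and Cyp3a16 is known from the fetal and newborn liver. Cyp3a13 is prominent in the intestine.

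The members lie on mouse chromosome 5 (GRCm38). Cyp3a13 is at chr5:137892932-137921619, where the annotated gene Gm15502 overlaps it on the same strand. The other 7 lie together between 145436309 and 146113287, and Cyp3a59 alone among them is on the plus strand. Each coding transcript has 13 exons. Cyp3a41a and Cyp3a41b were 99.9% identical over 1512 coding bases, and 88.4% of the 100-base windows of the Cyp3a41a transcript occur unchanged in Cyp3a41b, so the split of reads between this pair is uncertain. Cyp3a25 and Cyp3a59 were 97.5% identical in coding sequence but shared 6.0% of such windows. For Cyp3a11, Cyp3a13 and Cyp3a16 that share was at most 0.3%.

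Coding and upstream sequence grouped the members differently. The coding sequence of Cyp3a11 matched Cyp3a41a at 95.2% of bases and Cyp3a44 at 94.9%, which is above the 92.7% between Cyp3a16 and Cyp3a41a. In the 250 bases before the RefSeq start, however, Cyp3a16, Cyp3a41a, Cyp3a41b and Cyp3a44 matched one another at 93.9% to 99.6%, and Cyp3a11 matched these 4 at 79.6% to 83.7%. These upstream sequences, from RefSeq on GRCm38.p6, are shown because the same 4 genes are those nearly absent from the libraries labelled Bmal1-/-. Capitals mark motif matches, and all 8 members were found in the RefSeq table. The RefSeq start of Cyp3a11 lies 110 bases inside the GENCODE gene, so only its 140 bases before both starts are printed. The windows on the minus strand are chr5:145469724-145469973 for Cyp3a16, chr5:145720137-145720386 for Cyp3a41a, chr5:145805875-145806124 for Cyp3a44 and chr5:145879965-145880104 for Cyp3a11.
Cyp3a16: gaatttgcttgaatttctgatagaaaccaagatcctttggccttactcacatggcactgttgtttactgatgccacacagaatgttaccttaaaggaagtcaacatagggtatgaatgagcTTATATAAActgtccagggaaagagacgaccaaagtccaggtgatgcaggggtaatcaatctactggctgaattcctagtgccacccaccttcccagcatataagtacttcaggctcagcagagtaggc
Cyp3a41a: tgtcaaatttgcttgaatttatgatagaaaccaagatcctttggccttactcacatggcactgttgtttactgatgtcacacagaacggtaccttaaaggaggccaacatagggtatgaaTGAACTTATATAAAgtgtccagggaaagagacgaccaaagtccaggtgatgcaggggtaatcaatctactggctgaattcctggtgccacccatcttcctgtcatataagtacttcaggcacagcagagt
Cyp3a44: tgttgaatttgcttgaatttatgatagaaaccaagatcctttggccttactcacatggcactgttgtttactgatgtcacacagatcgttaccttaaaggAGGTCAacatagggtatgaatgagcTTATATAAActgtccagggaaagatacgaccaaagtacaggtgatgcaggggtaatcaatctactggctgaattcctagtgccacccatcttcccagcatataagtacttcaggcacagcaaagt
Cyp3a11: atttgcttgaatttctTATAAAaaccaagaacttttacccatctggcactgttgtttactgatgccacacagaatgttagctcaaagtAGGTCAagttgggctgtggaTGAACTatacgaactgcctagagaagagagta

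In Cyp3a16, Cyp3a41a, Cyp3a41b and Cyp3a44 the capitals spell TTATATAAA about 125 bases before the start. This stretch matches both the D-box core TTANNTAA, searched with any base at each N, and the TATA box letters TATAAA. The matches overlap, so the same bases are counted for both motifs. The D-box core was in 4 of 8 members and in 5.4% of 32851 RefSeq promoters of the same length, searched on both strands. TATAAA was in 5 of 8 members and in 12.4% of promoters. The nuclear receptor half-sites AGGTCA and AGTTCA were in 4 of 8 and 3 of 8 members, against 14.0% and 11.8% of promoters. The C/EBP core TTGCNNAA was in 1 of 8 members, that of Cyp3a25, and in 9.6% of promoters. The E-box CACGTG and the STAT5 letters TTCNNNGAA were in 0 of 8, against 6.0% and 7.0% of promoters. These are matches of letters in short windows and not binding sites. The 4 genes with the D-box core are 93.9% to 99.6% identical upstream, so their matches are near-copies of 1 stretch. Counts out of 8 members are therefore not independent, and no excess over the share of promoters is read from them. The plot of identity between pairs sets coding against upstream sequence.

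**Figure D1:**
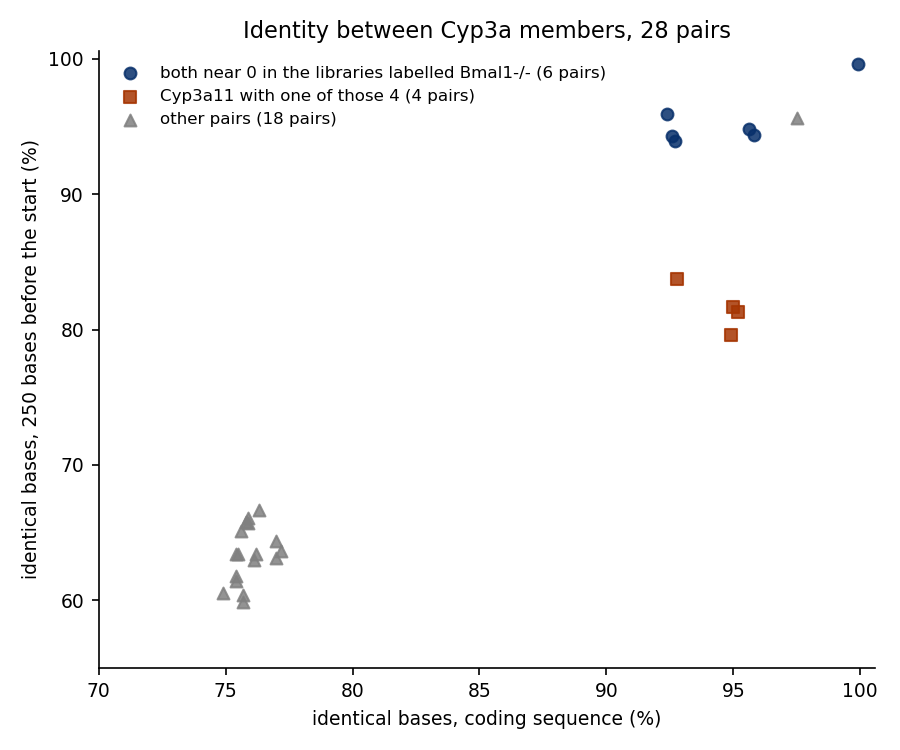
Percent identical bases between each of the 28 pairs of members, in the coding sequence (x axis) and in the 250 bases before the RefSeq start (y axis). Circles are pairs within Cyp3a16, Cyp3a41a, Cyp3a41b and Cyp3a44, at 93.9% or more upstream, squares are Cyp3a11 with each of these 4, at 79.6% to 83.7% upstream, and triangles are the other pairs.

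Some facts of the libraries bear on every value below. The library totals ran from 14054825 to 18449143 counts, so that a count of 3, used as the floor, was worth 0.163 to 0.213 CPM (each count scaled by its library total). Levels are CPM scaled by the TMM method, which sets 1 factor per library, and log2 fold changes set the libraries labelled Bmal1-/- over the Bmal1+/+ libraries. Bmal1 (Arntl) itself went against the label, with 15 to 45 counts in Bmal1+/+ libraries and 444 to 524 counts in the others, which are therefore called the libraries labelled Bmal1-/-. Xist had 14165 to 17102 counts in Bmal1+/+ libraries and 2 to 12 in the others. The Y-linked genes Ddx3y, Kdm5d, Uty and Eif2s3y were at 0 in Bmal1+/+ libraries and had at least 183 counts in each library labelled Bmal1-/-. Sex and label cannot be told apart, because the sex transcripts divide the 8 libraries exactly as the label does. The 8 hepatocyte markers summed to 89571.5 to 104309 CPM in Bmal1+/+ libraries and to 41793 to 57449 CPM in the libraries labelled Bmal1-/-. Alb made up most of the Bmal1+/+ sums, with 64318 to 71872 CPM there and 12744 to 18830 CPM in the others. The difference between the sums is therefore largely that of Alb and does not show a fall of every marker. The 6 fibroblast markers of a stromal fraction summed to 131 to 208 CPM and 99.3 to 105 CPM, and none of either list was at 0. The 4 macrophage markers summed to 225 to 282 CPM in Bmal1+/+ libraries and 90.1 to 175 CPM in the others, the 3 endothelial markers to 117 to 140 CPM and 66.5 to 96.4 CPM, and the 4 epithelial tumor cell markers to 185 to 229 CPM and 209 to 355 CPM. The part of any of these lists in the results was not tested. Of 6 enterocyte markers, Alpi, Cdx1 and Cdx2 were at 0 in every library. In bulk RNA, fewer cells of a type and less RNA per cell cannot be told apart. Replicate 4 of the libraries labelled Bmal1-/- stood apart, with 40378 CPM summed over 10 acute phase genes against 2732 to 4748 CPM in its 3 companions and 2021 to 3041 CPM in Bmal1+/+ libraries. Values of the members that rest on it are given with and without it.

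Cyp3a16, Cyp3a41a, Cyp3a41b and Cyp3a44 were abundant in every Bmal1+/+ library and at or near 0 in every library labelled Bmal1-/-. Cyp3a41b had 42905, 31832, 12528 and 68130 counts in Bmal1+/+ replicates 1 to 4 and 38, 5, 5 and 2 counts in replicates 1 to 4 of the libraries labelled Bmal1-/-. Cyp3a41a, its near-identical neighbour, had 17838, 12502, 5465 and 26339 counts against 20, 4, 0 and 2 counts. Replicate 1 held most of the few counts of this pair left in the libraries labelled Bmal1-/-. Cyp3a16 had 9440, 2492, 860 and 12533 counts in the Bmal1+/+ libraries and 1, 0, 3 and 0 in the others. Cyp3a44 had 2862, 3429, 2223 and 9725 counts and then 2, 0, 0 and 2. For none of these genes did a library of 1 label come near the range of the other label.

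In TMM-scaled CPM, Cyp3a41b had 2314 ± 1225 (SD, n = 4) in Bmal1+/+ libraries and 0.803 ± 1.05 (SD, n = 4) in the libraries labelled Bmal1-/-. Its pooled level was 2829-fold higher in Bmal1+/+ libraries, with a 95% interval of 2146 to 3812 from the exact Clopper-Pearson method on the pooled counts. For Cyp3a41a the ratio was 2176, with an interval of 1485 to 3331. Cyp3a16 and Cyp3a44 had 4 counts each over all libraries labelled Bmal1-/-, none above the floor of 3 counts in a library. Their pooled ratios were 5764 (interval 2251 to 21157) for Cyp3a16 and 4151 (interval 1621 to 15237) for Cyp3a44. Set against the floor of 3 counts in each library labelled Bmal1-/-, the Bmal1+/+ means were 1827 times the floor for Cyp3a16 and 1333 times the floor for Cyp3a44. The intervals cover counting error only and not the spread between samples. Fitted log2 fold changes lay between -12.26 (SE 1.18, Cyp3a16) and -11.04 (SE 0.83, Cyp3a41a). At these counts a fitted value, and the SE computed from it, depend on the prior count.

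**Figure D2:**
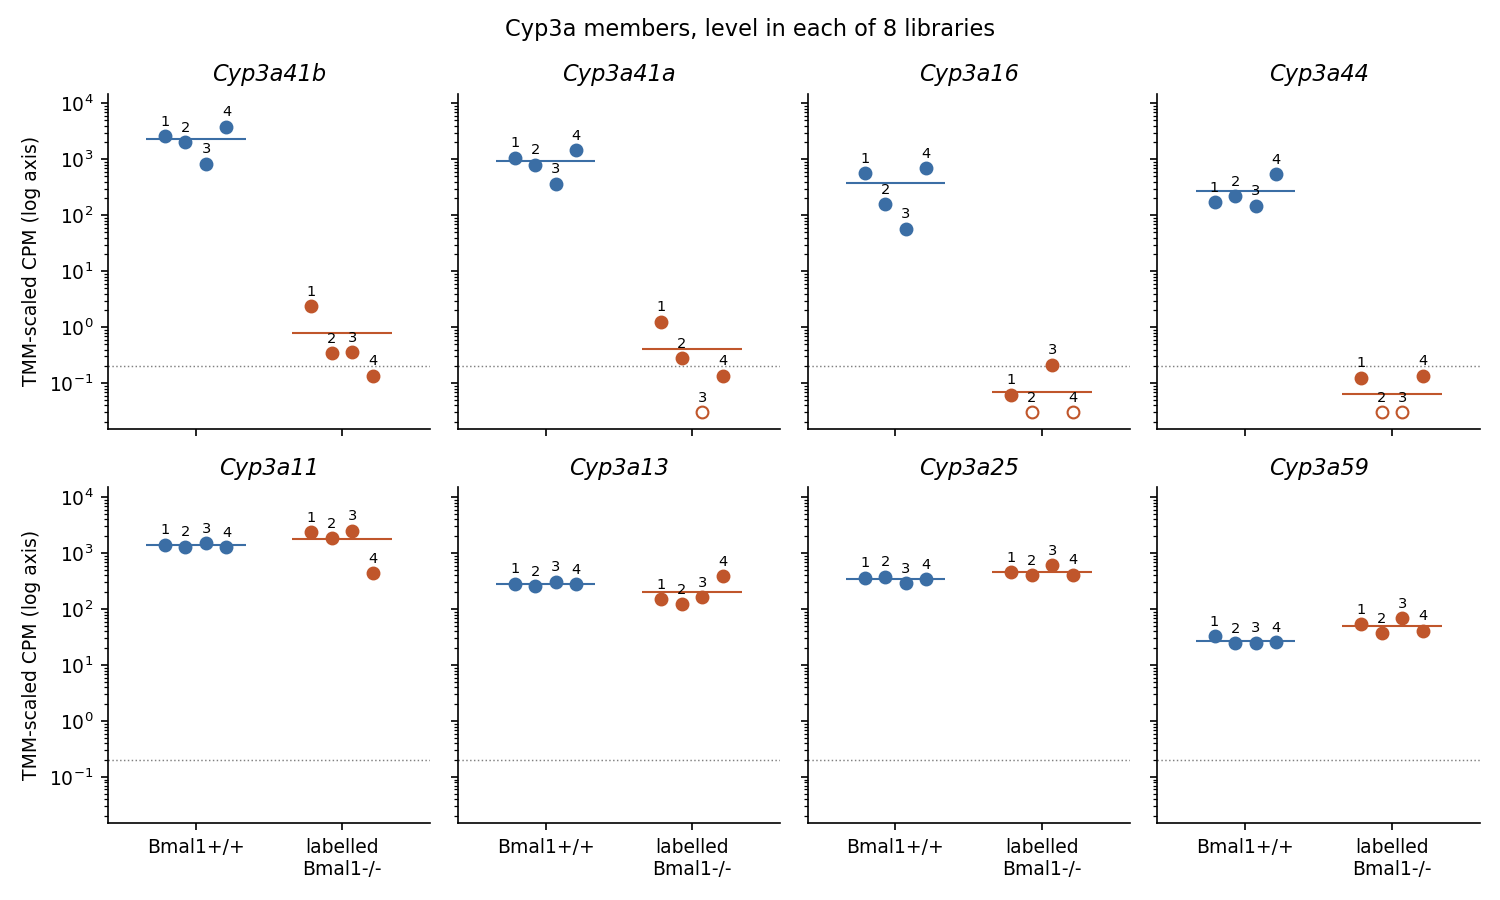
Level of each member in 8 libraries as TMM-scaled CPM on a log axis, with the replicate number at each point and the group mean as a bar. Open circles are counts of 0, drawn at an arbitrary low position, and the dotted line at 0.2 CPM stands near 3 counts. The 4 genes of the upper row fall to 2.37 CPM or less under the Bmal1-/- label, and those of the lower row stay at 24.6 CPM or more in every library.

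By direction, 5 of the 8 members had a mean log2 fold change below 0 and 3 above 0, and all 8 passed the filter on low counts. In 4 members every library labelled Bmal1-/- lay below every Bmal1+/+ library, in 2 every one lay above, and in 2 the groups overlapped. Over all 14353 genes tested, 16.8% of genes lay entirely below and 16.7% entirely above. Without replicate 4 of the libraries labelled Bmal1-/- the members divided into 5 below and 3 above, when 20.7% of all genes lay below and 20.5% above. Since the label contrast chose the members, nothing is read from these counts.

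Cyp3a11, the main drug-metabolizing form of mouse liver, stayed abundant under both labels. It had 1425, 1301, 1524 and 1278 CPM in Bmal1+/+ replicates 1 to 4, the narrowest relative range of any member but Cyp3a13. The libraries labelled Bmal1-/- had 2392, 1851, 2510 and 434 CPM. Replicates 1 to 3 were above every Bmal1+/+ library and replicate 4 was below all of them. With all libraries the log2 fold change was 0.38 (SE 0.42), and without replicate 4 it was 0.71 (SE 0.14). In replicate 4 the Cyp3a11 level was 0.193 times the mean of the other 3 libraries with its label.

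Cyp3a13, known from the intestine, showed the mirror image in the same library. Its levels were 286, 260, 307 and 282 CPM in Bmal1+/+ libraries and 149, 123, 162 and 390 CPM in those labelled Bmal1-/-. Replicates 1 to 3 were below every Bmal1+/+ library, and replicate 4 was above every other library. The log2 fold change was -0.46 (SE 0.32) with all libraries and -0.97 (SE 0.12) without replicate 4, where the level was 2.69 times that of its 3 companions. Consequently the count of Cyp3a11 divided by that of Cyp3a13 was 4.53 to 5.01 in Bmal1+/+ libraries, 15.0 to 16.0 in replicates 1 to 3 of the libraries labelled Bmal1-/- and 1.11 in replicate 4. Haptoglobin (Hp), an acute phase protein of the liver, was at 15580 CPM in this replicate and at 3884 CPM or less elsewhere, and Saa1, serum amyloid A, was at 7751 CPM against 80.3 CPM or less. The 6 enterocyte markers summed to 14.4 CPM in this replicate and to 27.3 to 51.5 CPM in all other libraries. Fabp2 made up nearly all of that sum, at 14.3 CPM in this replicate, and Lct and Vil1 had at most 7 counts in any library. The pseudogene Gm15502 inside the locus had 4.10 to 5.78 CPM in Bmal1+/+ libraries and 1.57 to 4.34 CPM in the others. The part of the acute phase genes in these levels was not tested.

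**Figure D3:**
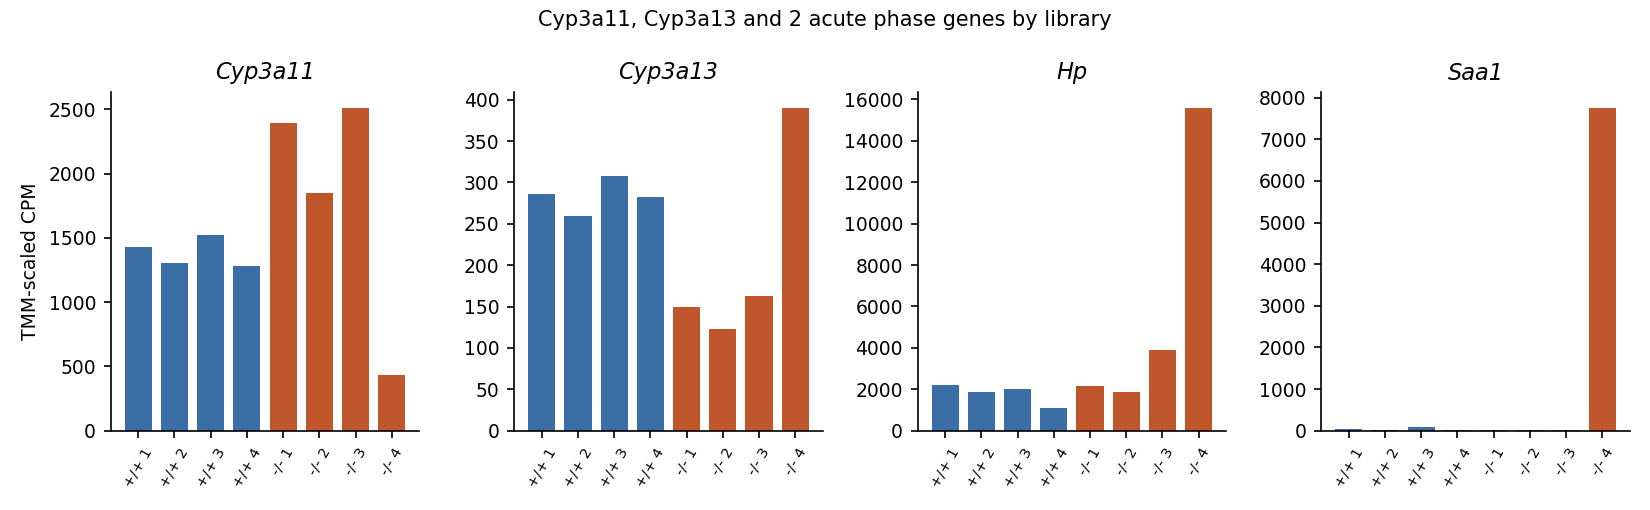
TMM-scaled CPM of Cyp3a11, Cyp3a13, Hp and Saa1 in each of 8 libraries, each panel on its own linear axis from 0, with Bmal1+/+ replicates 1 to 4 on the left and libraries labelled Bmal1-/- on the right. Replicate 4 of the latter has the lowest Cyp3a11 level (434 CPM) and the highest levels of Cyp3a13 (390 CPM), Hp (15580 CPM) and Saa1 (7751 CPM).

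Cyp3a25 and Cyp3a59, the pair at the telomeric side of the cluster with 95.6% identical upstream sequence, were both higher in the libraries labelled Bmal1-/-. Cyp3a25 had 366, 377, 289 and 339 CPM in Bmal1+/+ libraries and 453, 401, 613 and 413 CPM in the libraries labelled Bmal1-/-. Cyp3a59 was far lower, with 33.2, 24.6, 24.99 and 25.8 CPM and then 53.9, 37.0, 68.1 and 41.4 CPM. The groups did not overlap for either gene, and replicate 3 of the libraries labelled Bmal1-/- was highest for both. Log2 fold changes were 0.46 (SE 0.16) for Cyp3a25 and 0.88 (SE 0.19) for Cyp3a59. Without replicate 4 they were 0.52 (SE 0.16) and 0.97 (SE 0.20), so the library that parted Cyp3a11 from Cyp3a13 left this pair nearly where it was. Cyp3a59 counts were 6.53% to 9.08% of Cyp3a25 counts in Bmal1+/+ libraries and 9.21% to 11.9% in the others.

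Summed over the 8 members, the level was 6508, 5181, 3561 and 8424 CPM in Bmal1+/+ libraries and 3052, 2414, 3354 and 1278 CPM in the libraries labelled Bmal1-/-. The sums did not overlap, although Bmal1+/+ replicate 3 and replicate 3 of the other label came close. As means this was 5918 ± 2060 CPM (SD, n = 4) and 2524 ± 919 CPM (SD, n = 4), with a log2 fold change of the summed row of -1.23 (SE 0.34), or -1.01 without replicate 4. The make-up changed more than the sum. Cyp3a16, Cyp3a41a, Cyp3a41b and Cyp3a44 together took 67.6%, 62.1%, 39.8% and 77.2% of the members' counts in Bmal1+/+ replicates 1 to 4, and at most 0.1248% in any library labelled Bmal1-/-. Cyp3a41b alone took 23.6% to 45.0% in the Bmal1+/+ libraries. Cyp3a11 took 15.2% to 42.8% there, 74.8% to 78.4% in replicates 1 to 3 of the libraries labelled Bmal1-/- and 33.9% in replicate 4. In that replicate Cyp3a25 took 32.3% and Cyp3a13 took 30.5%, close to the share of Cyp3a11.

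**Figure D4:**
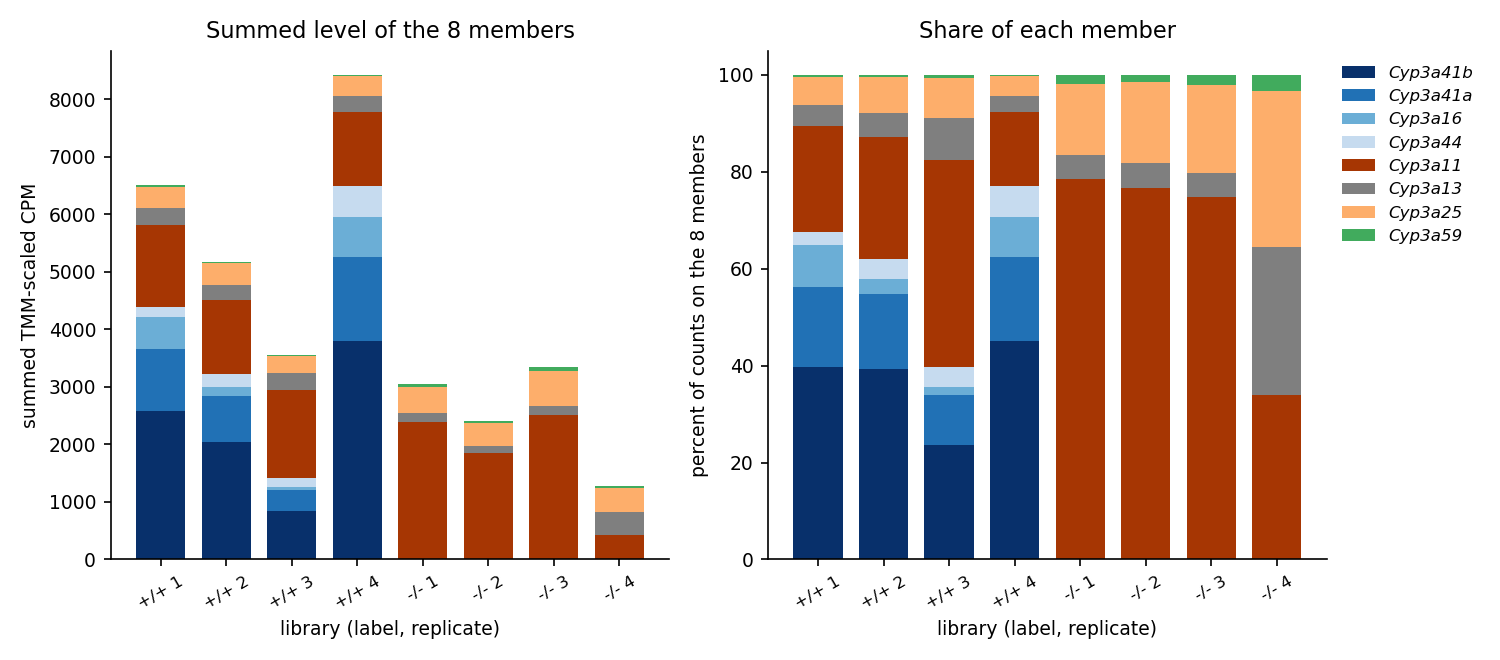
Left, TMM-scaled CPM of the 8 members stacked in each library. Right, percent of the members' counts that fall on each gene. Blue shades are Cyp3a41b, Cyp3a41a, Cyp3a16 and Cyp3a44, which hold 39.8% to 77.2% of counts in Bmal1+/+ libraries and at most 0.1248% in the libraries labelled Bmal1-/-, where Cyp3a11 holds 33.9% to 78.4%.

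Levels of different genes were compared per length, first as the deposited FPKM, the fragments on a gene divided by its length and by the library total. In Bmal1+/+ libraries the order was Cyp3a41b (1104 ± 576 FPKM), Cyp3a41a (443 ± 218), Cyp3a11 (266 ± 27.3), Cyp3a16 (212 ± 177), Cyp3a44 (136 ± 89.7), Cyp3a25 (104 ± 11.1), Cyp3a13 (95.1 ± 8.22) and Cyp3a59 (10.2 ± 1.66), each as mean ± SD of 4. Every neighbouring pair in this order overlapped in range over the libraries, except Cyp3a13 and Cyp3a59. In the libraries labelled Bmal1-/- the order was Cyp3a11 (354 ± 189 FPKM), Cyp3a25 (145 ± 29.6), Cyp3a13 (69.7 ± 39.9) and Cyp3a59 (19.1 ± 5.28), with the other 4 below 0.4 FPKM on average. Without replicate 4 Cyp3a11 had 445 ± 65.1 FPKM and Cyp3a13 had 49.9 ± 6.26 FPKM (SD, n = 3), Cyp3a25 had 152 ± 31.8 and Cyp3a59 had 20.3 ± 5.71, and no neighbouring pair among these leading 4 overlapped. The FPKM length of Cyp3a11 is 5.146 kb, whereas its coding transcript has 2344 bases, and for Cyp3a25 the lengths are 3.272 kb and 2000 bases. FPKM thus places these genes lower than their coding transcripts would. Per kb of coding transcript, Cyp3a11 moved to the second rank in Bmal1+/+ libraries, at 590 ± 48.9 CPM per kb against 1121 ± 594 for Cyp3a41b and 450 ± 225 for Cyp3a41a, and Cyp3a25 passed Cyp3a44.

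The members differed in how much they varied among the Bmal1+/+ libraries. The highest library over the lowest was 12.1-fold for Cyp3a16, 4.51-fold for Cyp3a41b, 3.99-fold for Cyp3a41a and 3.63-fold for Cyp3a44, and only 1.18-fold to 1.35-fold for Cyp3a11, Cyp3a13, Cyp3a25 and Cyp3a59. As SD of log2 CPM the first 4 lay between 0.83 and 1.68 and the latter between 0.10 and 0.20, with a median of 0.22 over all genes tested. Replicate 3 was lowest and replicate 4 highest for each of the 4 variable genes. Cyp3a41b kept a near-constant ratio to Cyp3a41a, at 2.29 to 2.59 over the 4 Bmal1+/+ libraries. In the libraries labelled Bmal1-/- the SD of log2 CPM was 1.20 for Cyp3a11 and 0.74 for Cyp3a13, against a median of 0.25 over all genes. Without replicate 4 these were 0.24 and 0.20, with a median of 0.21.

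Of the 3 other gene rows with a Cyp3a symbol, only the pseudogene Cyp3a63-ps passed the filter. It lies at chr5:145624092-145633993 between Cyp3a41b and Cyp3a41a and had 124, 71, 50 and 115 counts in Bmal1+/+ libraries and 0 in each library labelled Bmal1-/-. With 5.44 ± 1.84 CPM (SD, n = 4) under the Bmal1+/+ label, it was at least 26.8-fold higher there, taking 3 counts per library as the floor. It passed the filter through the Bmal1+/+ libraries alone, so no test is given. It shares 4.5% of 100-base windows with Cyp3a44, so the placement of some of its reads is uncertain. Replicate 3 was lowest for this gene too. Cyp3a57, just outside the cluster's other end, had 9, 3, 0 and 6 counts against 0, 0, 0 and 1, and Cyp3a61-ps1 had 1 count in all 8 libraries together.

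Of all 14353 genes tested, 31.1% had an adjusted p below 0.05, with 16.2% lower and 14.9% higher in the libraries labelled Bmal1-/-. Against this, 6 of 26 tested regulators of Cyp3a genes were lower, 0 were higher and 20 did not pass (23.1% called), with a median log2 fold change of -0.24 beside 0.02 over all genes. Dbp, a clock-driven activator that binds D-boxes, had 67.0, 91.3, 113 and 108 CPM in Bmal1+/+ libraries and 3.75, 4.50, 6.97 and 3.73 CPM in the others. Its log2 fold change was -4.32 (SE 0.25, adjusted p = 4.1e-06, from the edgeR quasi-likelihood fit over all genes with the correction of Benjamini and Hochberg, as every adjusted p below). Its relative Tef fell by 0.98 on the log2 scale (SE 0.14, adjusted p = 9.7e-04), whereas the remaining relative, Hlf, had -0.15 (SE 0.22, adjusted p = 0.64). Ppargc1a, a coactivator of hepatic nuclear receptors, fell by 1.5 on the log2 scale (SE 0.22, adjusted p = 1.0e-03). Tef, Hlf, Ppara and Cebpb are named after their values were seen. Ppara, the fatty acid receptor, fell by 0.91 (adjusted p = 0.017), and Cebpb, a liver bZIP factor, fell by 0.66 (adjusted p = 0.017). The Cebpb call was lost with the replicate block, at adjusted p = 0.055.

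The receptors that induce Cyp3a genes had smaller differences than Dbp or Ppargc1a. Nr1i2, which encodes PXR, had 132 ± 10.8 CPM and 98.5 ± 15.6 CPM (SD, n = 4 each), a log2 fold change of -0.42 (SE 0.13, adjusted p = 0.033). That call was lost without Bmal1+/+ replicates 1, 2 or 3, without replicates 2 or 3 of the libraries labelled Bmal1-/-, with library size only and without a filter on low counts, at adjusted p of 0.054 to 0.087. Nr1i3, which encodes CAR, had 329, 318, 388 and 314 CPM in Bmal1+/+ libraries and 186, 191, 318 and 118 CPM in the others. Its log2 fold change of -0.73 (SE 0.25) had an adjusted p of 0.054, and it passed once replicate 3, its highest under that label, was left out, as it did with DESeq2, limma-voom and the replicate block, at adjusted p of 0.0047 to 0.036. Hnf4a, which holds the hepatocyte program, had 838 ± 105 and 726 ± 91.9 CPM (SD, n = 4 each) and a log2 fold change of -0.21 (SE 0.15, adjusted p = 0.31).

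Of 16 redox partners and heme supply genes, 3 were lower and 2 were higher, and 11 did not pass, so that the share called was 31.25% beside 31.1% of all genes. Por, the electron donor of every microsomal P450, had 937, 1332, 1177 and 803 CPM in Bmal1+/+ libraries and 101.4, 156, 192 and 182 CPM in the libraries labelled Bmal1-/-. This was a log2 fold change of -2.75 (SE 0.24, adjusted p = 4.5e-05). Alas1, the rate-limiting enzyme of heme synthesis in liver, had 1208, 1393, 1265 and 1189 CPM against 144, 315, 191 and 220 CPM, a log2 fold change of -2.54 (SE 0.23, adjusted p = 5.2e-05). For both genes the lowest Bmal1+/+ library stood far above the highest of the others, and replicate 4 was not set apart. Hmox2, a constitutive heme oxygenase, rose by 1.16 (SE 0.23, adjusted p = 0.0043). Cyb5b, which encodes the cytochrome b5 of the outer mitochondrial membrane, fell by 0.68 (adjusted p = 0.0063), and Urod, of heme synthesis, rose by 0.37 (adjusted p = 0.022), both named after their values were seen. The Urod call was lost without Bmal1+/+ replicates 2 or 4, without replicate 3 of the libraries labelled Bmal1-/- and with the replicate block, at adjusted p of 0.052 to 0.067.

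Of 15 tested growth hormone signaling genes, 4 were lower, 2 were higher and 9 did not pass, which is 40.0% called beside 31.1% of all genes. Cux2, a liver repressor known from females, had 64.9, 78.3, 60.3 and 84.0 CPM in Bmal1+/+ libraries and 0.874, 0.346, 0.213 and 0.204 CPM in the others. Its log2 fold change was -7.39. Cux2 passed the filter on low counts through the Bmal1+/+ libraries, with the others near the floor, so no test is given for it. The 4 lower genes include it. Bcl6, a repressor known as male-biased in mouse liver, had 10.7, 14.3, 14.6 and 22.2 CPM against 129, 83.1, 72.6 and 67.6 CPM, a log2 fold change of 2.51 (SE 0.27, adjusted p = 1.4e-04). The groups did not overlap in either gene. Prlr, the prolactin receptor, fell by 1.54 (SE 0.16, adjusted p = 1.2e-04) and Igfbp3, a carrier of IGF1, by 1.27 (SE 0.20, adjusted p = 0.0014). Stat5b, which carries the growth hormone signal to the nucleus, rose by 0.52 (adjusted p = 0.0028), and Igf1 fell by 0.65 (adjusted p = 0.027). Stat5b, Igf1 and Ghr are named after their values were seen, and the Igf1 call was lost without Bmal1+/+ replicates 2, 3 or 4 or replicate 1 of the libraries labelled Bmal1-/-, at adjusted p of 0.0503 to 0.069. Ghr, the growth hormone receptor, had a log2 fold change of -0.02 (SE 0.20, adjusted p = 0.95).

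**Figure D5:**
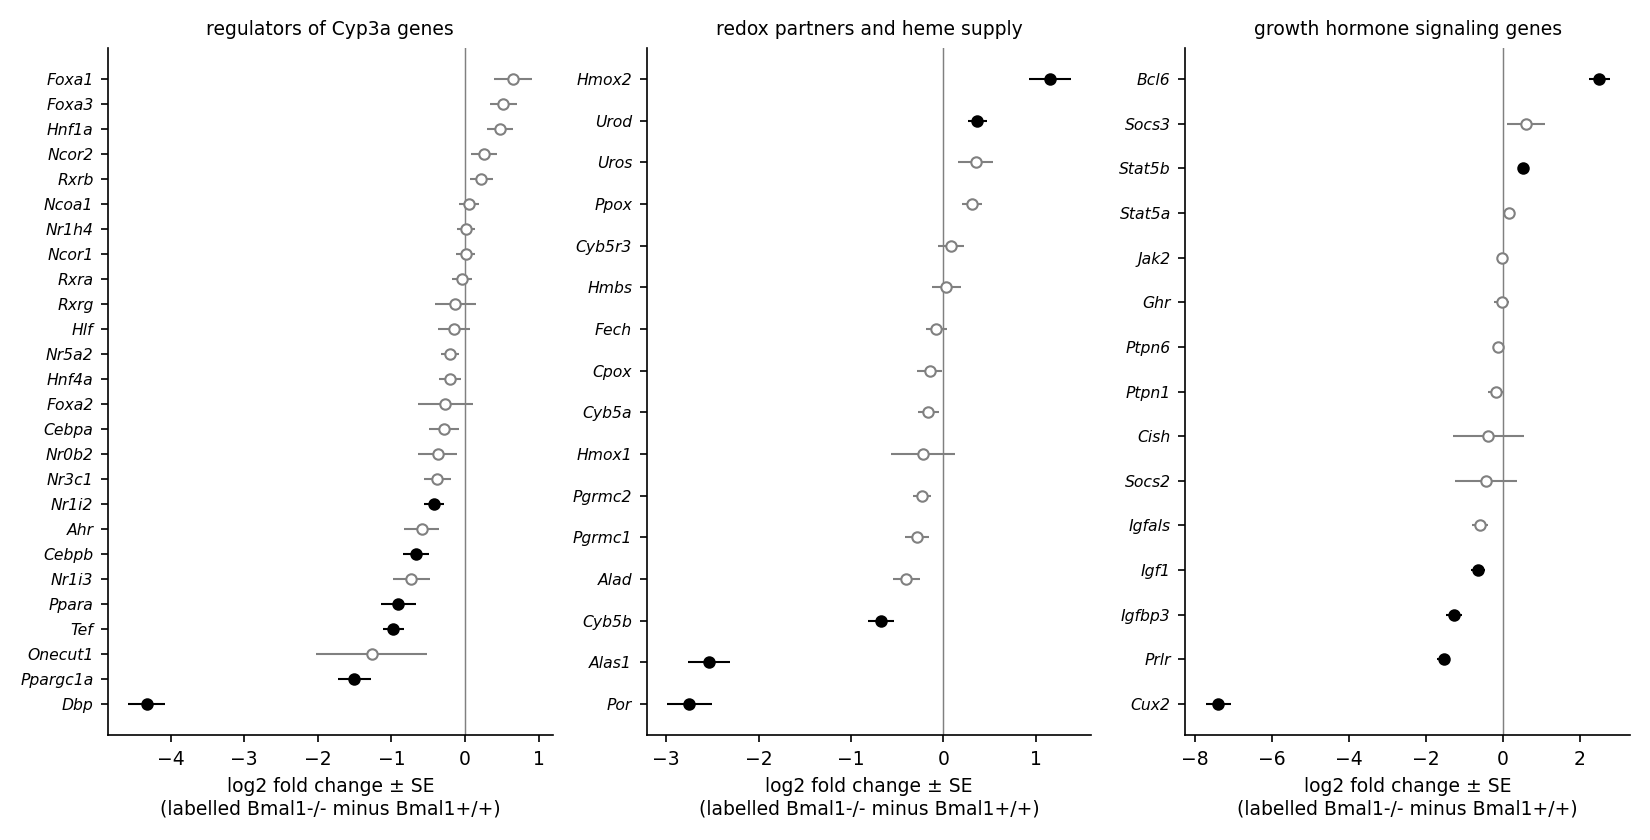
Log2 fold change ± SE of the libraries labelled Bmal1-/- against Bmal1+/+ libraries for the tested genes of 3 lists, each panel on its own axis. Filled points have an adjusted p below 0.05 in edgeR's quasi-likelihood test. Dbp (-4.32), Por (-2.75), Alas1 (-2.54) and Cux2 (-7.39) lie farthest to the left, and Bcl6 (2.51) farthest to the right. Cux2 passed the filter on low counts through the Bmal1+/+ libraries.

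Genes around the members were called at about the share of all genes only when both directions were pooled. Of 53 tested genes within 500 kb of a member that are not Cyp3a genes, 4 were lower, 14 were higher and 35 did not pass, 34.0% called beside 31.1% of all genes. Over all genes 16.2% were lower and 14.9% were higher, so the calls of this list leaned to the higher side. The cause of this lean was not tested. The log2 fold changes of these 53 genes ran from -1.22 to 2.03, with a median of 0.21 beside 0.02 over all genes. No gene of this list approached the values of Cyp3a16, Cyp3a41a, Cyp3a41b or Cyp3a44. The list pools genes around Cyp3a13 with genes around the distant cluster of the other members. It was not split by place, so these values do not describe the cluster alone. Gjc3, which encodes a connexin, rose by 2.03 (SE 0.31, adjusted p = 0.0011), and this call held under each of 15 alternatives. Pilrb1, a receptor gene of myeloid cells, had 1.98 to 3.79 CPM in Bmal1+/+ libraries and 0.485 to 2.10 CPM in the others, with a log2 fold change of -1.22 (SE 0.41, adjusted p = 0.048). Gm15502, which overlaps Cyp3a13 on the same strand, had -1.04 (SE 0.32, adjusted p = 0.033). It is 1 of the 4 lower genes, and whether its reads come from Cyp3a13 was not tested, so it is not independent of the members. For Pilrb1 and Gm15502 the groups overlapped, and the calls were lost under 8 and 7 of the 15 alternatives, at adjusted p of 0.052 to 0.13. The count in the lower direction was 0 without Bmal1+/+ replicate 1 and 1 each without Bmal1+/+ replicates 2 or 4, without replicates 1, 2 or 3 of the libraries labelled Bmal1-/- and without a filter on low counts. The count in the higher direction was 9 to 14 when a library was left out. In both directions together the count of calls was 11 without Bmal1+/+ replicate 1, 10 without Bmal1+/+ replicate 4 and 10 without replicate 2 of the libraries labelled Bmal1-/-. Within 1000 kb, 8 of 80 tested genes were lower and 18 were higher, beside 16.2% and 14.9% of all genes.

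The genes with the most similar course over the 8 libraries were found as the smallest root mean square difference of centred log2 CPM. Nearest to Cyp3a11 was Ces2a, a carboxylesterase (0.21), which had 213 to 267 CPM in Bmal1+/+ libraries, 336 to 406 CPM in replicates 1 to 3 of the libraries labelled Bmal1-/- and 102.5 CPM in replicate 4. Prss53 (0.28) and Rhbdl1 (0.32) came next. Nearest to Cyp3a13 were Adcy3 (0.18), Lpgat1 (0.19) and Hmox1 (0.19), the inducible heme oxygenase, which had 14.4 to 15.0 CPM in replicates 1 to 3 of the libraries labelled Bmal1-/- and 43.2 CPM in replicate 4. Cyp3a25 had closer partners at 0.09 in Oxld1, Zfp316 and Anp32a, and Cyp3a59 had Eva1a (0.12), Pias3 (0.14) and Slc35b1 (0.16).

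The nearly absent members had more distant partners, which were themselves nearly absent from the libraries labelled Bmal1-/-. For Cyp3a16 these were the sulfotransferases Sult2a2 (0.59) and Sult2a1 (0.72) and then A1bg (0.92). Sult2a2 had 233, 86.5, 41.4 and 223 CPM in Bmal1+/+ replicates 1 to 4, again lowest in replicate 3, and 0 in every library labelled Bmal1-/-. For Cyp3a41a they included Xist (0.73) and the testosterone hydroxylase gene Cyp2a4 (0.77). For Cyp3a41b they were Cyp2a4 (0.82), Xist (0.83) and Slc22a26 (0.96), and for Cyp3a44 they included Sult2a2 (0.75) and Slc22a26 (0.76). Near 0 counts these distances depend on the prior count of 2.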

How the data were processed

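RNA of 8 samples, 4 per genotype label, was sequenced. The authors aligned paired-end reads to GRCm38.102 with HISAT2 2.0.5, sorted them with SAMtools 1.3.1 and counted fragments per gene with StringTie. The submitters' processing notes also name CASAVA 1.8 and TopHat2 2.0.6. The authors deposited raw counts, which were tested here, and FPKM, which equals the count over the library total and 1 fixed length per gene for 100% of 9653 genes within 1%. Strand use is not given in the sources used here.

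The members and gene lists were chosen with earlier results of these data known. Groups follow the genotype labels. The 14353 genes that passed filterByExpr were compared by the quasi-likelihood test of edgeR 4.0.16 after TMM scaling, with p adjusted after Benjamini and Hochberg. The common dispersion was 0.0506. DESeq2 1.42.0 and limma 3.58.1 (voom) in R 4.3.3 were alternatives, with upper-quartile and library-size scaling, 2 other filters, a prior count of 2, the replicate block, leaving out each library and the study's criterion. Named genes were every Cyp3a row, Nr1i2, Nr1i3, Hnf4a, Por, list genes with adjusted p below 0.05 and an absolute log2 fold change above 1, and the 3 nearest genes by profile, of which 1 is not reported here. Symbols matched 99.4% of rows through GENCODE vM21 on GRCm38. No library duplicated another, with a chi-square per degree of freedom of at least 18.0 between libraries of 1 label. Sequences were compared with Biopython 1.88 and figures drawn with matplotlib 3.10.9 in Python 3.11.15.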

Additional observations from a re-analysis of the deposited data

Results flagged for a closer look

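Within each group of 4 libraries, the gap between the highest or lowest library and its nearest neighbour was divided by the range of the group, for the members and the other genes named. Of 100 groups 12 had a share above Dixon's critical value for 4 values, and chance flags about 1 in 20 independent groups. The genes with the nearest profiles were chosen to follow the members over these same libraries. The groups are thus not independent, and no excess is read from this count. Of the members, Cyp3a13 had a share of 0.853 in the libraries labelled Bmal1-/-, from replicate 4 at 390 CPM against 123 to 162 CPM. Cyp3a41b had 0.902 in the same label, from replicate 1 at 2.37 CPM against 0.136 to 0.356 CPM, which is 38 counts against 2 to 5. Cyp3a59 had 0.862 in Bmal1+/+ libraries, from replicate 1 at 33.2 CPM against 24.6 to 25.8 CPM.

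Nr1i2 had a share of 0.871 in Bmal1+/+ libraries, from replicate 2 at 148 CPM. Hnf4a had 0.896 in Bmal1+/+ libraries, from replicate 4 at 681 CPM. Hmox2 had 0.892 in the libraries labelled Bmal1-/-, from replicate 3 at 67.7 CPM.

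Among the genes with the nearest profiles, Anp32a had a share of 0.949 in Bmal1+/+ libraries, with replicate 3 at 41.9 CPM. In the libraries labelled Bmal1-/-, Hmox1 had 0.979 and Lpgat1 had 0.872, both highest in replicate 4, and Rhbdl1 had 0.893, lowest in replicate 4. Slc22a26 and Sult2a1 had a share of 1 in these libraries, since each was counted in 1 library alone.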

How the results depend on the processing

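Each of the 8 members kept the sign of its log2 fold change with upper-quartile scaling, library size only, DESeq2, a prior count of 2, the replicate block and without each library in turn, and 5 members stayed below 0 in each. Scaling moved the median of all genes by less than 0.05 on the log2 scale. The summed members ranged from -1.41 to -1.01 when a library was left out. The fitted values of Cyp3a16 and Cyp3a44 went from -12.26 to -10.88 and from -11.81 to -10.43 with a prior count of 2, and Cyp3a41a and Cyp3a41b reached -12.62 and -12.98 without replicate 1 of the libraries labelled Bmal1-/-, and Cyp3a16 reached -13.61 without replicate 3 of that label. With the floor of 3 counts taken over the group, the Bmal1+/+ mean was 7324 times the floor for Cyp3a16 and 5345 times for Cyp3a44. Summing Cyp3a41a and Cyp3a41b gave -11.34. Levels per kb of coding transcript and the counts and SDs without replicate 4 were added after the data were seen.

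The study's own criterion, which asks for a log2 fold change beyond 1 in size and p below 0.05 before adjustment, called 2026 genes in place of 4457. By list, it called 2 of the regulators in place of 6, 3 redox and heme genes in place of 5, 4 growth hormone genes in place of 6 and 3 neighbouring genes in place of 18. This criterion leaves out small changes by construction. Without a filter on low counts, 11 neighbouring genes were called, with 28004 genes in the adjustment. Leaving out a library gave 3599 to 4714 genes, 5 to 8 regulators, 4 to 7 redox and heme genes, 5 to 8 growth hormone genes and 10 to 20 neighbouring genes.

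Samples with the same replicate number did not deviate together over all genes, with correlations of -0.064, 0.063, 0.043 and 0.036 for numbers 1 to 4. No pairing by number was seen, though this cannot exclude one. Replicate 4 of the libraries labelled Bmal1-/- has the number 6 in its title, so its match to Bmal1+/+ replicate 4 rests on the replicate field alone. With the replicate block 3873 genes were called, 7 regulators, 4 redox and heme genes, 6 growth hormone genes and 14 neighbours, Cyp3a11 had 0.14, Cyp3a13 had -0.63 and the summed members -1.23. At these depths a level under 0.163 CPM is below 3 counts in every library.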

Other observations

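The few counts left in the libraries labelled Bmal1-/- were compared with the Bmal1+/+ mean of each gene after their values were seen. Cyp3a41b stood at 0.103%, 0.015%, 0.0154% and 0.00586% of that mean in replicates 1 to 4. Cyp3a41a stood at 0.135%, 0.0299%, 0% and 0.0146%. For this pair replicate 1 was highest. Cyp3a16 stood at 0.0168% in replicate 1 and 0.0576% in replicate 3, from 1 and 3 counts. Cyp3a44 stood at 0.0461% in replicate 1 and 0.0501% in replicate 4, from 2 counts each. Counts this few do not rank the libraries for Cyp3a16 and Cyp3a44.

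Genes with the nearest profiles had few counts in these libraries as well. Xist stood at 0.0795% in replicate 1, with 12 counts, and at 0.0151% to 0.0294% in replicates 2 to 4, with 2 to 4 counts. Slc22a26 had 8 counts in replicate 1 and 0 in replicates 2 to 4. A1bg stood at 0.0982%, 0%, 0.0203% and 0.0679% in replicates 1 to 4. Cyp2a4 stood at 0.0677% and 0.0820% in replicates 1 and 2, from 11 and 12 counts, and at 0.0211% and 0.00669% in replicates 3 and 4. The source of these counts was not tested.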
